A study of Mus musculus with 8 samples.

Results

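Mouse embryonic stem (ES) cells labelled as Zbtb24 knockout (KO) were sequenced from an input of 100 cells and from an input of 1000 cells, and the genes that differed between these inputs are described here. The comparison rests on 4 of the 8 libraries of the series, 2 for each input. Its members are the 15966 genes, of 43309 in the table of counts, that reached at least 10 counts in at least 1 of those 4 libraries. Of these, 1247 reached 10 counts only in the libraries of 100 cells and 875 only in those of 1000 cells. The other 4 libraries came from wild-type (WT) cells at the same inputs and are given beside the KO values. All cells were of the J1 line (129SV), grown in serum on gelatin with no feeder layer. The labels give the genotypes as 1lox/1lox for KO and 2lox/+ for WT, so the WT cells also carried a targeted allele. The study took cells from several clones of each genotype, which it calls biological replicates. Neither its text nor the labels say which clone gave which library. Amplification took 18 PCR cycles at 100 cells, an input near 1 ng of RNA, and 10 cycles at 1000 cells, an input near 10 ng, so that cell number, RNA amount and PCR cycles cannot be told apart. The label Zbtb24 KO was given to both inputs, so the targeted gene was not a variable in this comparison.

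The SMARTer Ultra Low kit lyses cells directly, copies polyadenylated RNA into full-length cDNA by template switching, and amplifies that cDNA by PCR before it is cut and tagged for sequencing. Libraries from fewer cells are given more PCR cycles to reach the same amount of cDNA. ES cells are pluripotent cells of the early embryo, which use the naive pluripotency factors, divide fast and hold few transcripts of differentiated tissues. Brain tissue is recognised by sets of transcripts with distinct roles: synaptic vesicle proteins and transmitter receptors in neurons, myelin proteins in oligodendrocytes, and transporters and water channels in astrocytes.

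Zbtb24, a zinc finger protein gene at chr10:41450383-41465574 (GRCm38, plus strand), had 532 and 494 counts in the KO libraries of 100 cells (replicates 1 and 2, an order kept throughout) and 526 and 545 in those of 1000 cells. The inputs overlapped, with a log2 ratio of -0.02 (SE 0.08, edgeR quasi-likelihood test with Benjamini-Hochberg adjustment, adjusted p = 0.825). The WT libraries held 197 and 269 counts at 100 cells and 244 and 201 at 1000 cells, below all KO libraries. The count covers all exons of the gene and cannot show whether a segment was deleted, so the KO libraries are named by their labels. Total counts were 13040055 to 14907462 in the KO libraries and 9666985 to 16686525 over all 8. The replicates of KO at 100 cells differed least of the 4 groups (a chi-square per degree of freedom of 1.99, where 1 is counting error alone) and those of WT at 100 cells most (17.6). All 22 naive pluripotency genes listed, which mark ES cells, reached at least 10 cpm (counts scaled to the library total) in every WT library.

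The profile of 100 KO cells differed from that of 1000 KO cells in 8663 genes (54.3% of 15966 tested, edgeR quasi-likelihood test, adjusted p up to 0.05). At 100 cells 4589 genes (28.7%) had risen and 4074 (25.5%) had fallen. Over all genes tested rises were larger than falls, a gap that includes the ratios of genes with few counts in 1 input. The median log2 ratio was 0.77 among genes that rose and -0.48 among genes that fell, and 1805 genes (11.3%) rose but 783 (4.9%) fell by more than 1 on the log2 scale, 16.2% in all. Over all genes tested the median was 0.0099. The libraries of the inputs did not overlap for 76.6% of genes tested, with both libraries of 100 cells above in 38.5% and below in 38.1%. The test draws on the spread shared across genes, since each side held 2 libraries. Nothing in the labels says that replicates came from separate cultures, so the p-values measure the spread between these libraries, which may be technical.

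Genes were divided by their level in the WT libraries, which the KO comparison did not use. Of 28644 genes under 1 cpm in every WT library, 1765 passed the count filter, 799 rose and 163 fell. Since 982 of these passed only through the libraries of 100 cells, which are the ones that had to be high, the number at 1 cpm or more is the plainer measure: 541 of the 28644 reached it in both libraries of 100 KO cells and 117 in both of 1000 KO cells. Together they took 0.318% and 0.315% of all counts at 100 KO cells, 0.187% and 0.186% at 1000 KO cells, and 0.146% to 0.185% in WT. Both KO libraries of 100 cells were above both of 1000 cells. The WT values are low by the choice of these genes and are no comparison. Of 7853 genes at 10 cpm or more in every WT library, called ES-expressed below, 2212 rose (28.2%) and 2683 fell (34.2%), and the median log2 ratio was -0.04. The median log2 ratio was 0.44 among these rises and -0.36 among these falls, closer in size than over all genes. Only 184 of these rises and 46 of these falls were larger than 1 on the log2 scale. Of the 1805 rises above 1 over all genes, 791 were of genes under 1 cpm in every WT library. The plot of ratio against level shows both sets.

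**Figure D1:**
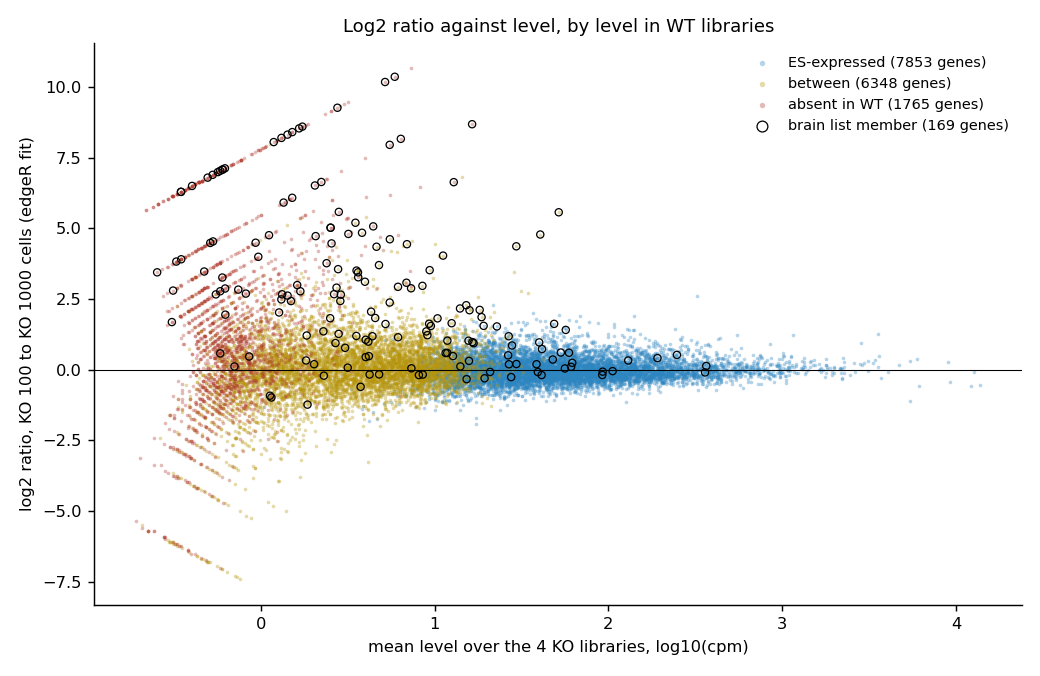
Log2 ratio of KO 100 to KO 1000 cells (y axis) against the mean level over the 4 KO libraries (x axis, log10 of cpm), 1 point per gene, coloured by its level in WT. Circles mark the 169 brain list members that were tested, most of which lie above the zero line at low level, while the 7853 ES-expressed genes form a narrow band around it. The oblique lines of points are genes with 0 or few counts in 1 input, whose fitted ratios depend on a prior count.

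Transcripts typical of brain were mostly higher at 100 KO cells. Lists of brain cell types and regions held 209 genes in the table. These lists were chosen with earlier results of these data known, so their counts describe these libraries and are no independent support. Both libraries of 100 KO cells were above both libraries of 1000 KO cells for 159 of the 209 and below for 14, beside 38.5% and 38.1% of all genes tested, and for 141 they were above all 6 other libraries. By the test, which 169 entered, 133 rose, 8 fell and 28 were not called, beside 28.7% of all genes tested that rose. Of the 169, 66 passed the filter only through the libraries of 100 cells. The median log2 ratio of those tested was 2.11, and it was the same with genes at 0 in KO 1000 set to their lower bound. In WT, 0 of the 172 listed genes tested rose or fell (edgeR quasi-likelihood test, 139 genes called in all, 0.827% of those tested), 3 and 6 of them had an unadjusted p below 0.05 with a higher and a lower ratio, and DESeq2 also called 0. Without replicate 1 of 100 WT cells 2 rose and 7 fell, and without replicate 2 12 rose and 7 fell. The median log2 ratio in WT was 0.00. The interaction of input and genotype was called for 74 of them with a higher ratio in KO and for 0 with a lower one, beside 9.28% and 7.05% of all genes tested. At an unadjusted p below 0.05 these were 88 and 4, and by DESeq2 68 and 0. Without replicate 1 or replicate 2 of 100 WT cells, 3 or 5 were called with a lower ratio. For the 104 listed genes under 1 cpm in every WT library, the summed level was 273 and 268 cpm with 100 KO cells, 14.9 and 13.4 cpm with 1000 KO cells, and 9.72 to 13.8 cpm among WT libraries, where it is low by the choice of these genes. Summed over all 209, the level was 3859 and 3949 cpm at 100 KO cells, 2643 and 2486 cpm at 1000 KO cells and 3678 to 3996 cpm in WT, most of it from members that WT cells also express. The part of brain transcripts in other results was not tested. Counts of each brain list below are read against the same shares of all genes tested, of which 28.7% rose and 25.5% fell. Counts of members whose inputs do not overlap include members under the count filter, which the shares of all genes do not. Where members other than the most abundant of a list are named below, they were chosen after their values were seen.

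Vesicle release genes were higher at 100 KO cells. Snap25, a SNARE protein that fuses synaptic vesicles with the membrane (chr2:136713453-136782428), had 1121 and 1021 counts at 100 KO cells and 36 and 44 at 1000 KO cells. The WT libraries held 17 to 32 counts, so only the libraries of 100 KO cells stood apart, with a log2 ratio of 4.78 (SE 0.12, edgeR adjusted p = 2.7e-26). Syt1, the calcium sensor of vesicle release, had 305 and 272 counts against 19 and 17 (log2 ratio 4.03, SE 0.19, edgeR adjusted p = 3.14e-18). Syn2, a synapsin of the vesicle surface, had 187 and 162 counts against 1 and 0, a pooled ratio of 356 with a 95% interval of 63.5 to 14111. That interval, like the others given for ratios of low counts, is exact and covers counting error only. The vesicular glutamate transporter Slc17a7 of the cortex had 211 and 201 counts against 32 and 22, and Slc17a6, its relative of deeper brain regions, had 38 and 27 against 0 and 0, at least 22.1-fold higher against a floor of 3 counts over the group. Of 22 vesicle and transmitter loading genes, 20 rose and 0 fell, and both libraries of 100 cells were above both of 1000 cells for 21. Vamp2 and Rab3a of the release machinery rose by smaller log2 ratios of 2.28 and 1.81. Syngr1, a vesicle protein gene that is ES-expressed, had 499 and 540 counts against 552 and 580 and was not called. Slc32a1, which loads GABA into vesicles, stayed under 10 counts in every KO library.

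Receptors and channels of neurons were also higher. The AMPA receptor subunit gene Gria2 had 172 and 151 counts at 100 KO cells, 0 and 0 at 1000 KO cells, and 0 to 1 in the WT libraries, at least 110-fold higher (edgeR adjusted p = 5.36e-17). Camk2a, the kinase subunit abundant at excitatory synapses, had 120 and 122 counts against 4 and 8 (log2 ratio 4.35, SE 0.30, edgeR adjusted p = 4.23e-14). In both genes the inputs lay far apart. Of 14 postsynaptic genes, 11 rose and 2 fell, and 8 had passed the filter only through the libraries of 100 cells. The 2 that fell were the scaffold genes Dlg4 (log2 ratio -0.98, edgeR adjusted p = 0.0492) and Homer1 (-0.31). Of 13 channels and pumps, 12 rose, among them the potassium channel Kcna1 (103 and 84 counts against 2 and 3) and the chloride transporter Slc12a5 (85 and 84 against 1 and 5). The calcium channel Cacna1a fell (-0.34). These 3 calls were lost without 1 of the libraries or by DESeq2, and with offsets for GC content and transcript length, described later, the ratio of Homer1 was 0.01.

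Cytoskeletal and general neuronal genes were more divided. Of 28 listed, 22 rose and 0 fell, and the inputs were apart with 100 cells above for 22 and below for 2. The secretory granule genes Scg2 (76 and 75 counts against 0 and 0) and Chgb (108 and 128 against 2 and 5), the neurofilament Nefm (89 and 90 against 7 and 9) and the neuronal enolase Eno2 (320 and 305 against 78 and 65) were among those that rose. Of the 6 that were not called, Mapt, Stmn2, Ina and Uchl1 are ES-expressed. Stmn2, a regulator of microtubules, had 4582 and 4894 counts against 4830 and 5612, and Ina, an intermediate filament, had 811 and 744 against 726 and 826, so the inputs overlapped in Ina. Uchl1, Mapt, Elavl3 and Elavl4 had log2 ratios of 0.10, -0.08, -0.17 and -0.19. Tubb3, the tubulin often used to mark neurons, rose by only 0.41 on the log2 scale, from 2328 and 2269 to 2977 and 2980 counts.

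**Figure D2:**
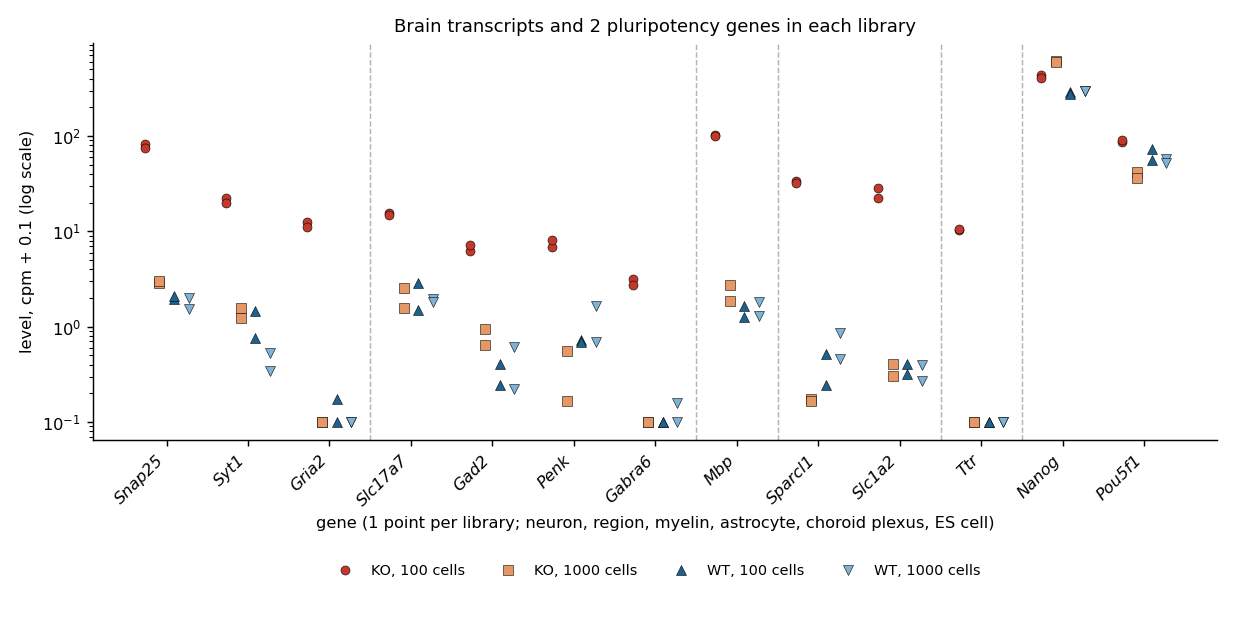
Level of 11 brain transcripts and 2 pluripotency genes in each of the 8 libraries (y axis, cpm + 0.1 on a log scale, 1 point per library, 2 per group), ordered as neuron, region, myelin, astrocyte, choroid plexus and ES cell. For the brain transcripts both libraries of 100 KO cells lie above the 6 others, for Nanog both lie below those of 1000 KO cells, and for Pou5f1 both lie above.

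Transcripts of several forebrain regions and of the cerebellum were present together. Penk, which encodes the opioid precursor of striatal and other neurons, had 93 and 109 counts against 6 and 1. Gabra6, the receptor subunit of cerebellar granule cells, had 42 and 36 against 0 and 0, at least 26.5-fold higher, and Neurod6, a factor of cortical excitatory neurons, 19 and 13 against 0 and 0, at least 10.9-fold higher. Both libraries of 100 cells were above both of 1000 cells for 9 of 9 striatal genes, beside 38.5% of all genes tested. The same held for 7 of 9 genes of cortex and hippocampus and 6 of 7 of the cerebellum. Of the genes tested, 6 of 8, 5 of 9 and 2 of 7 in these lists passed the filter only through the libraries of 100 cells. Of 10 genes typical of inhibitory neurons 7 rose, among them the GABA-making enzymes Gad1 (223 and 210 counts against 116 and 102) and Gad2 (84 and 96 against 11 and 8). Sst (10 and 12 against 0 and 0) and Pvalb (24 and 25 against 2 and 0) rose too. Calb2, the most abundant of the 10 (204 and 195 counts against 177 and 202), was not called. Lhx6 (32 and 26 against 37 and 32) was not called either, and Vip stayed under 10 counts in every KO library. Other regions gave few counts. The hormone genes Oxt, Avp, Pmch, Hcrt, Agrp, Prl and Gh, the monoamine genes Slc6a3, Tph2, Slc6a4 and Dbh, and the hindbrain and spinal genes Slc6a5, Chat, Hoxb5, Hoxb8 and Hoxc8 stayed under 1 cpm in every KO library. Slc6a5 was nevertheless called higher, on 12 and 1 counts against 0 and 1 (log2 ratio 3.44, edgeR adjusted p = 0.0273). Replicate 2 of 100 KO cells was at the level of 1 library of 1000 KO cells, and the call was lost by DESeq2 and without replicate 1 of 1000 KO cells. Of the others in those lists, Th, the first enzyme of dopamine synthesis, rose from 6 and 1 to 14 and 13 counts, Pomc fell from 35 and 38 to 15 and 15, Ddc, the next enzyme of dopamine synthesis, fell from 1248 and 1511 to 1198 and 1152 (log2 ratio -0.19), and Trh, which WT cells express, was not called. The calls of Th and Ddc were lost by DESeq2 and without either library of 100 KO cells.

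Myelin and astrocyte transcripts rose with the neuronal ones. Mbp, the main basic protein of myelin, had 1416 and 1360 counts at 100 KO cells, 34 and 26 at 1000 KO cells and 15 to 20 in the WT libraries (log2 ratio 5.56, SE 0.12, edgeR adjusted p = 1.52e-27). Mag, Mog and Ermn, which mark mature oligodendrocytes, had 29 to 43 counts per library at 100 cells and 0 to 6 at 1000 cells. Of 16 oligodendrocyte genes, 13 were tested, 9 rose and 0 fell. Both libraries of 100 KO cells were above both of 1000 KO cells for 11 of the 16 and below for 2. Those 2 were Olig2 (64 and 59 counts against 69 and 73) and Ugt8a (115 and 104 against 121 and 133), which were not called. Aspa and Trf were not called either. Among astrocyte genes the largest rise was that of Sparcl1, a secreted matrix protein (chr5:104079111-104113733), with 463 and 435 counts against 1 and 1, a pooled ratio of 458 with a 95% interval of 127 to 3790 (edgeR adjusted p = 4.01e-23). The glutamate transporter Slc1a2 (chr2:102658659-102790784) had 395 and 304 against 4 and 3, the water channel Aqp4 38 and 34 against 0 and 0, and S100b 54 and 41 against 0 and 0. Of 18 astrocyte genes, 15 rose and 0 fell. Those that WT ES cells also express moved little, such as Apoe (0.52), Glul (0.24) and Aldoc (0.32).

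Markers of microglia, vessels and coverings of the brain had few counts, with exceptions. Of 13 microglial genes, 11 had both libraries of 100 cells above both of 1000 cells, but 9 stayed under 1 cpm in every KO library, among them Aif1, Cx3cr1, C1qa, C1qb, C1qc, Tmem119, Trem2 and Tyrobp. The summed level of the 13 was 20.4 and 21.9 cpm at 100 KO cells, 10.4 and 9.99 cpm at 1000 KO cells, and 13.2 to 16.4 cpm in WT. Much of it came from Laptm5, the only ES-expressed member, with a mean of 11.6 cpm over the KO libraries. The other 12 were under 1 cpm in every WT library. All 5 genes tested rose, 4 of which passed the filter only through the libraries of 100 cells. These 4 were Ctss (42 and 21 counts against 4 and 6), P2ry12 (13 and 15 against 1 and 0), Siglech (7 and 11 against 1 and 0) and Csf1r. Csf1r, the receptor that microglia need, had 15 and 11 counts against 4 and 0, and its call was lost by DESeq2. Of 12 vessel genes, 4 rose and 2 fell, and Cdh5 and Higd1b stayed under 1 cpm in every KO library. The 4 that rose had 9 to 20 counts per library at 100 KO cells and 0 to 2 at 1000 KO cells. Those that fell were Flt1 (38 and 43 counts against 59 and 68) and Itm2a (359 and 324 against 408 and 434). Ttr, the transthyretin gene that dominates choroid plexus, had 141 and 143 counts at 100 KO cells and 0 in all 6 other libraries, at least 96.6-fold higher. Enpp2, also of choroid plexus, had 186 and 177 counts against 7 and 10, while its WT counts of 66 to 85 lay between. Foxj1, Kl and Kcne2 of the same list were under 1 cpm in every KO library. Ptgds, a prostaglandin synthase of the meninges and glia, had 404 and 395 counts against 95 and 132. It and Mgp (10 and 9 against 0 and 0) were the 2 tested of 5 meningeal genes, and both rose. The meningeal collagen Col1a1 had 9 and 7 against 8 and 4, under 10 counts in every KO library, and was not tested.

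Lists of other organs mostly stayed under the count filter. Of 58 genes of blood, liver, muscle, lung, pancreas, kidney, testis, lymphocytes, skin and gut, and retina, 10 had both libraries of 100 KO cells above both of 1000 KO cells and 18 had both below. Over all genes tested, which had passed the count filter, these shares were 38.5% and 38.1%. The 2 are not alike, since 45 of the 58 stayed under 1 cpm in every KO library and 16 had 0 counts in all of them. Only 17 were tested, with 2 that rose and 6 that fell, beside 28.7% and 25.5% of all genes tested. The adult beta globin Hbb-bs rose from 0 and 0 to 8 and 12 counts, at least 6.81-fold, and shares 65.8% of its 50-base windows with other genes. Most genes that fell did so at low counts, such as the mucin Muc2 (1 and 0 against 22 and 11), the gut brush border gene Vil1 (3 and 4 against 23 and 30) and the haem synthesis gene Alas2 (1 and 1 against 16 and 14). An exception was the muscle gene Mylpf, which is ES-expressed and had 1107 and 1145 counts against 1173 and 1518 (log2 ratio -0.21). Of 16 embryonic neural progenitor genes, 10 had both libraries of 100 KO cells above both of 1000 KO cells and 1 had both below, beside 38.5% and 38.1% of all genes tested. Of the 11 tested, 4 rose, among them Dcx, Zic1 and Fabp7, and Sox11 fell (126 and 143 counts against 210 and 260), while Pax6, Nes and Neurod1 were not called.

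**Figure D3:**
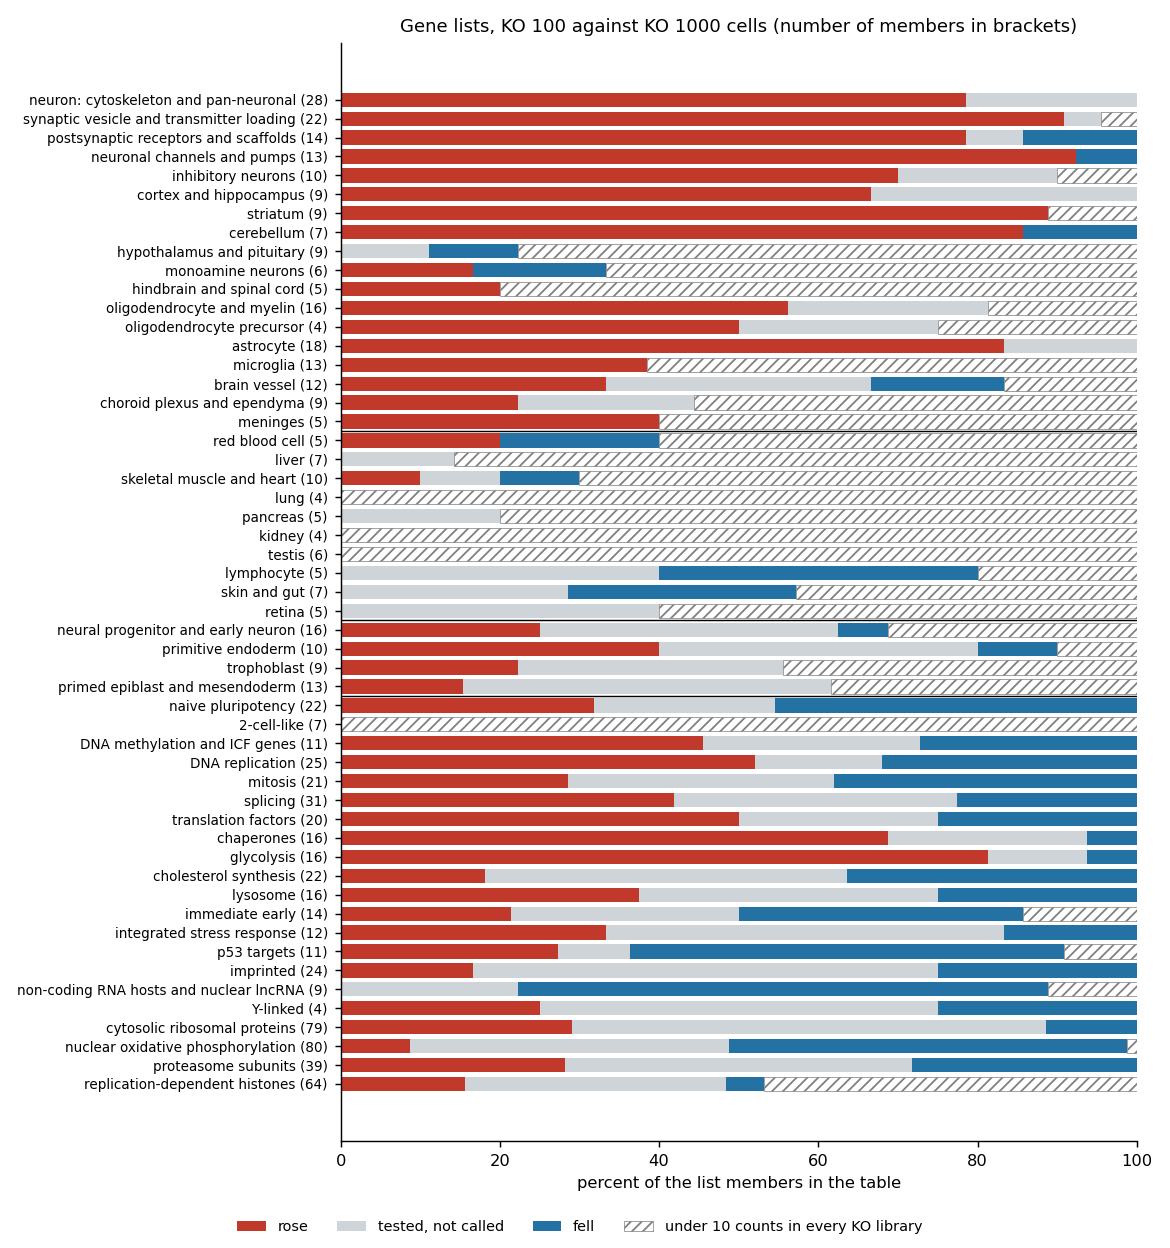
Share of each gene list (x axis, percent of the members in the table, whose number stands in brackets) that rose, fell, was tested without a call, or stayed under 10 counts in every KO library, for KO 100 against KO 1000 cells. Lists of brain, other organs, embryonic lineages and ES cells are separated by lines. The synaptic, channel, striatal and astrocyte lists are mostly red, while most lists of ES cell functions hold calls in both directions and the 2-cell-like list has no tested member.

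Pairs of related genes, 1 member typical of brain and 1 used more widely, were compared within the same libraries. Snap25 rose by 4.78 on the log2 scale while Snap23 fell by 0.16, with 1137 and 1058 counts against 1173 and 1354. Kif5a, a neuronal motor protein, rose by 2.11 while Kif5b fell by 0.17. With the offsets the ratios of Snap23 and Kif5b were 0.02 and 0.07, and the call of Snap23 was also lost by DESeq2. The vesicle protein Vamp2 had 2.28 and Vamp3, which was not called, 0.06. Over 16 pairs the brain member rose in 13, and its ratio was larger in 11, in 9 of them by more than 1. The wider member rose in 11, fell in 3 and was not called in 2. Of all genes tested, 28.7% rose and 25.5% fell. The median log2 ratios were 1.48 for brain members and 0.30 for the wider members. Among the exceptions were Tubb3 (0.41) and Tubb5 (0.42), Aldoc (0.32) and Aldoa (0.35), Ldhb (0.12) and Ldha (0.24), and Elavl4 (-0.19, not called) and Elavl1 (0.37).

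Other genes with large rises were outside the lists. By the rule for named genes, the 10 largest ratios among those that rose with a mean of at least 10 cpm over the KO libraries included those of Sparcl1, Gpm6a, Slc1a2, Mbp, Snap25, Prkar1b, Gpm6b, Syt1 and Gm10801. Gpm6a and Gpm6b, membrane proteins of neurons and glia, had 405 and 378 counts against 3 and 4, and 306 and 241 against 20 and 14. Prkar1b, a regulatory subunit of protein kinase A, had 285 and 244 against 14 and 11 (log2 ratio 4.43, SE 0.21, edgeR adjusted p = 4.51e-18), and shares exon positions with 1 other gene on its strand. Gm10801 is a predicted gene with 710 and 723 counts against 65 and 70. Among lower genes, chosen after their values were seen, were the neuronal calcium sensor Vsnl1 (246 and 203 against 4 and 1), the chaperone of hormone processing Scg5 (186 and 179 against 16 and 17), Arpp21 (163 and 135 against 1 and 3), the transcription factor Mef2c (128 and 127 against 6 and 4) and Cdr1 (181 and 217 against 0 and 0, at least 135-fold higher). Every 50-base window of Cdr1 is shared with an overlapping gene on the other strand, so those reads cannot be told apart. Likewise, strand was not used in counting, and genes on the other strand overlap exons of Slc1a2, Syn2, Penk, Enpp2 and Arpp21, and, among genes described later, of Hk1, Jun, Sf3a2, Tet2, Cherp, Malat1 and Meg3.

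Brain transcripts were higher at 100 KO cells at low and at high GC content. Among the 174 brain list members that are not ES-expressed, both libraries of 100 KO cells were above both of 1000 KO cells for 22 of 25 in the lowest quintile of GC content (1 of 5 equal groups of ES-expressed genes), 20 of 25 in the second, 19 of 22 in the third, 33 of 41 in the fourth and 46 of 61 in the highest. With offsets that take out the trends of each library with GC content and length (51.6% of genes called), 130 brain members rose and 9 fell. Between the 2 libraries of 100 KO cells the median log2 ratio was 0.02 over 116 members that rose and are not ES-expressed. A call favours genes whose replicates are alike, so this median is no separate support. Single genes could differ, such as Slc6a5 with 12 and 1 counts. In RNA from many cells together, fewer cells of a type and less RNA per cell cannot be told apart.

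Genes of ES cell functions moved in both directions and by less. The counts below are over all members tested, and are read against the 28.7% of tested genes that rose and 25.5% that fell. Among ES-expressed genes, to which most members of most of these lists belong, 28.2% rose and 34.2% fell. Counts with the offsets for GC content and length, for which 27.8% rose and 23.9% fell, follow in brackets where they differ by 1.5 times or more. Of 22 naive pluripotency genes, 7 rose (4 with the offsets) and 10 fell. Pou5f1, which encodes OCT4, had 1189 and 1237 counts at 100 KO cells and 550 and 533 at 1000 KO cells (log2 ratio 1.20, SE 0.08, edgeR adjusted p = 1.05e-14), and an antisense gene overlaps its exons. Klf2, a factor of the naive state, had 3023 and 3074 against 1424 and 1469 (1.11). Nanog had 5976 and 5566 counts against 8029 and 8895 (log2 ratio -0.51, SE 0.05, edgeR adjusted p = 2.1e-10). Esrrb (-0.67), Tfcp2l1 (-0.56), Fgf4 (-0.49) and Klf4 (-0.30) also fell. Sox2, with a ratio of 0.01, Lin28a, Dppa2, Dppa3 and Dppa5a were not called. The 2-cell-like genes, which mark a rare state of ES cultures, stayed under 10 counts in every KO library, for all 7 listed.

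Genes of DNA methylation and of the ICF syndrome, an immunodeficiency caused by mutations in genes that include Zbtb24, rose in 5 and fell in 3 (2 with the offsets) of 11. The methyltransferase Dnmt3b had 1172 and 1142 counts against 577 and 596 (log2 ratio 1.02, SE 0.07, edgeR adjusted p = 1.95e-13) and Dnmt1, the maintenance enzyme, rose by 0.65. Uhrf1 and Cdca7 rose by 0.35 and 0.37. The demethylating enzymes Tet1 (-0.44) and Tet2 (-0.59) and the remodeller Hells (-0.25, and 0.05 with the offsets) fell. The call of Tet1 rested on 5625 and 5301 counts against 6962 and 8332.

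Replication genes rose in 13 and fell in 8 of 25. Pold1, the catalytic subunit of polymerase delta, had 1574 and 1643 counts against 578 and 449 (log2 ratio 1.68, SE 0.09, edgeR adjusted p = 2.02e-16), and 6 of the helicase genes Mcm2 to Mcm7 rose, from 0.20 for Mcm3 to 0.97 for Mcm2. Fen1 rose by 1.32 from few counts (32 and 22 against 14 and 8), with genes of the other strand over its exons. Pola1 (-0.37), Prim1 (-0.41) and Tyms (-0.29) fell. Mitosis genes rose in 6 (4 with the offsets) and fell in 8 of 21, with Cdc20 at 0.57 and Mad2l1 at -0.41. Replication-dependent histones, whose mRNAs mostly lack a poly(A) tail, rose in 10 and fell in 3 of 34 tested, of 64 in the table. Hist1h1b had 464 and 532 counts against 218 and 249. Hist1h2ap, which shares 93.1% of its windows with other genes, had 184 and 1431 counts in the 2 libraries of 100 KO cells against 1128 and 1393, and was not called. Without replicate 1 of 100 KO cells its ratio was 0.24.

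Splicing genes rose in 13 (21 with the offsets) and fell in 7 (4) of 31. Sf3a2, a subunit of the U2 particle, had 480 and 482 counts against 111 and 132 (log2 ratio 2.02, SE 0.11, edgeR adjusted p = 1.83e-16), and its partner Sf3a1 rose by 0.82. Srsf10 (-0.48) and Srsf7 (-0.40), factors that bind exon sequences, fell. Translation factors rose in 10 and fell in 5 (3) of 20, led by Eef2 (1.23) and Eif3b (1.11), with Eif4e, the cap-binding protein, at -0.43. Chaperones rose in 11 and fell in 1 (0) of 16, each by a small ratio, such as Hspa4 (0.49), Hsp90ab1 (0.36) and Hspa8 (0.31), and Cct8 fell (-0.16). Cytosolic ribosomal protein genes rose in 23 (43 with the offsets) and fell in 9 (14) of 79, between -0.29 for Rps14 and 0.37 for Rpl13. Proteasome genes rose in 11 and fell in 11 (7) of 39, with Psmd3 at 1.07 and Psmb6 at -0.31.

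Glycolysis genes rose in 13 of 16, and only Hk2 fell (2 genes with the offsets). The hexokinase Hk1 had 678 and 729 counts against 248 and 212 (log2 ratio 1.65, SE 0.10, edgeR adjusted p = 2.5e-15), the phosphofructokinase Pfkl rose by 1.42, Pkm by 1.25, Eno1 by 0.93, Gapdh by 0.32 and Ldha by 0.24. Pkm had 68087 and 69682 counts against 31182 and 27797, and 34.4% of its windows and 72.2% of those of Eno1 are shared with other genes. Hk2, the other main hexokinase, had 2600 and 2617 counts against 3577 and 4257 (-0.54). With the offsets, 12 of the 16 still rose. Of 79 nuclear genes of oxidative phosphorylation tested, 7 rose (21 with the offsets) and 40 fell. Falls were small, from -0.12 for Atp5f1 (0.15 with the offsets) to -0.50 for Ndufb11, a subunit of complex I, while Atp5a1 (0.48) and Atp5b (0.40) of the ATP synthase core rose. Cholesterol synthesis genes rose in 4 and fell in 8 of 22, among them Mvd (0.60), Idi1 (-0.49), Msmo1 (-0.45) and Hsd17b7 (-0.70). Of 16 lysosome genes, 6 rose (4) and 4 fell (7). Psap had 797 and 810 counts against 219 and 187, Gaa, the acid glucosidase, rose by 1.14, and Npc1, which exports cholesterol, fell by 0.87.

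Stress and growth control genes were divided too. Targets of p53 fell in 6 and rose in 3 (0 with the offsets) of 10, with Zmat3 (309 and 269 counts against 500 and 610, log2 ratio -0.90), Ccng1 (-0.63), Cdkn1a (-0.55) and Mdm2 (-0.44) lower and Bax (0.25, and -0.22 with the offsets) higher. Immediate early genes rose in 3 (1) and fell in 5 of 12 tested. Jun had 24 and 25 counts against 6 and 12, Fos 75 and 72 against 120 and 145, and Egr1 695 and 653 against 753 and 895. Integrated stress response genes rose in 4 and fell in 2 (6 with the offsets) of 12. Ddit4 rose by 0.91 and Phgdh, the first enzyme of serine synthesis, by 0.87, the cystine transporter Slc7a11 fell by 0.99, and the regulator Atf4 was not called (-0.11).

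Among the listed non-coding transcripts, long intergenic RNAs and small nucleolar RNAs more fell than rose, but not among processed pseudogenes. Malat1 had 10535 and 10185 counts against 12834 and 16304 (log2 ratio -0.45), Neat1, which builds nuclear paraspeckles, 252 and 250 against 407 and 446 (-0.73), and the snoRNA host Gas5 12392 and 11854 against 15322 and 19124 (-0.46). Of 8 such genes tested, 6 fell and 0 rose (1 with the offsets). By annotation class, 113 of 388 long intergenic RNAs fell and 39 rose, and 25 of 72 small nucleolar RNA genes fell and 0 rose. Of 569 processed pseudogenes 55 rose and 35 fell, and of 13823 protein-coding genes 4382 rose and 3549 fell. Over all genes tested 28.7% rose and 25.5% fell. The share of long intergenic RNAs that fell was thus near that of all genes, while a smaller share rose. Imprinted genes rose in 4 and fell in 6 of 24. The maternally expressed Meg3 had 801 and 823 counts against 213 and 275 (log2 ratio 1.78, SE 0.09, edgeR adjusted p = 1.98e-17), whereas Rian, of the same imprinted locus, had 256 and 214 against 404 and 411 (-0.76). In WT, Meg3 fell (345 and 532 counts at 100 cells, 1082 and 879 at 1000 cells, log2 ratio -0.87). Peg10 (-0.86) and Kcnq1ot1 (-0.67) fell. Of 4 Y-linked genes, 1 rose (3 with the offsets) and 1 fell. Kdm5d rose (38 and 36 against 7 and 14), Ddx3y fell (250 and 182 against 333 and 374), and Eif2s3y and Uty were not called. Primitive endoderm genes rose in 4 and fell in 1 of 9 tested, with the collagen Col4a1 at 27 and 33 counts against 92 and 92 (log2 ratio -1.57), trophoblast genes rose in 2 of 5 and primed epiblast and mesendoderm genes in 2 of 8 (1 with the offsets), with none that fell in either list.

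The ES-expressed genes with the largest rises were Gm10800, Cactin, Psap, Med25, Cherp, an unnamed gene (ENSMUSG00000052429), Meg3, Hdgfl2, Upf1 and Gnl1. Cactin, a nuclear protein with a role in splicing (chr10:81321103-81326242), had 442 and 537 counts at 100 KO cells and 110 and 96 at 1000 KO cells (log2 ratio 2.29, SE 0.13, edgeR adjusted p = 2.98e-16). Psap encodes prosaposin, the precursor of lysosomal lipid-binding proteins (chr10:60277627-60302597, log2 ratio 2.02). Med25 encodes a subunit of the Mediator complex, which links transcription factors to RNA polymerase (chr7:44876765-44892712), with 1124 and 1119 counts against 329 and 280 (1.92). Cherp (1.91) and the helicase of RNA decay Upf1 (1.73) also act on RNA. Gm10800, a predicted gene, had 7167 and 7930 counts against 1211 and 1347 (2.60), and 30.1% of its windows are shared with other genes. The inputs lay apart in each of them, and in WT the same genes had log2 ratios between -0.87 (Meg3) and 1.24 (ENSMUSG00000052429).

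The largest falls among ES-expressed genes were those of Rhox5, Mir17hg, Slc35d2, Lin52, Gm26624, Xist, Senp8, Epha4, Enc1 and Bend3. Rhox5, an X-linked homeobox gene (chrX:37804842-37808876), had 94 and 102 counts against 393 and 364 (log2 ratio -1.91, SE 0.13, edgeR adjusted p = 4.19e-14), and 2083 to 3061 in WT. Mir17hg, the host transcript of a growth-promoting microRNA cluster, had 126 and 94 against 368 and 376 (-1.72). Slc35d2, a carrier of nucleotide sugars (chr13:64096308-64129368), had 103 and 103 against 287 and 286 (-1.44), and Lin52, a subunit of the DREAM complex of cell cycle genes (chr12:84451422-84546145), 195 and 156 against 435 and 532 (-1.42). Enc1, an actin-associated protein gene, had 1086 and 1039 counts against 2292 and 2585 (-1.16). Xpr1 (-1.28), Gm38359 (-1.28) and Lmbrd2 (-1.20), which did not reach 10 cpm in every WT library, belonged to the 10 largest falls over all genes of at least 10 cpm in KO. Deeper falls were seen at lower counts, chosen after their values were seen, in Prrg1 (8 and 13 against 99 and 111) and in the chemokine receptor Ackr3 (9 and 7 against 61 and 63).

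**Figure D4:**
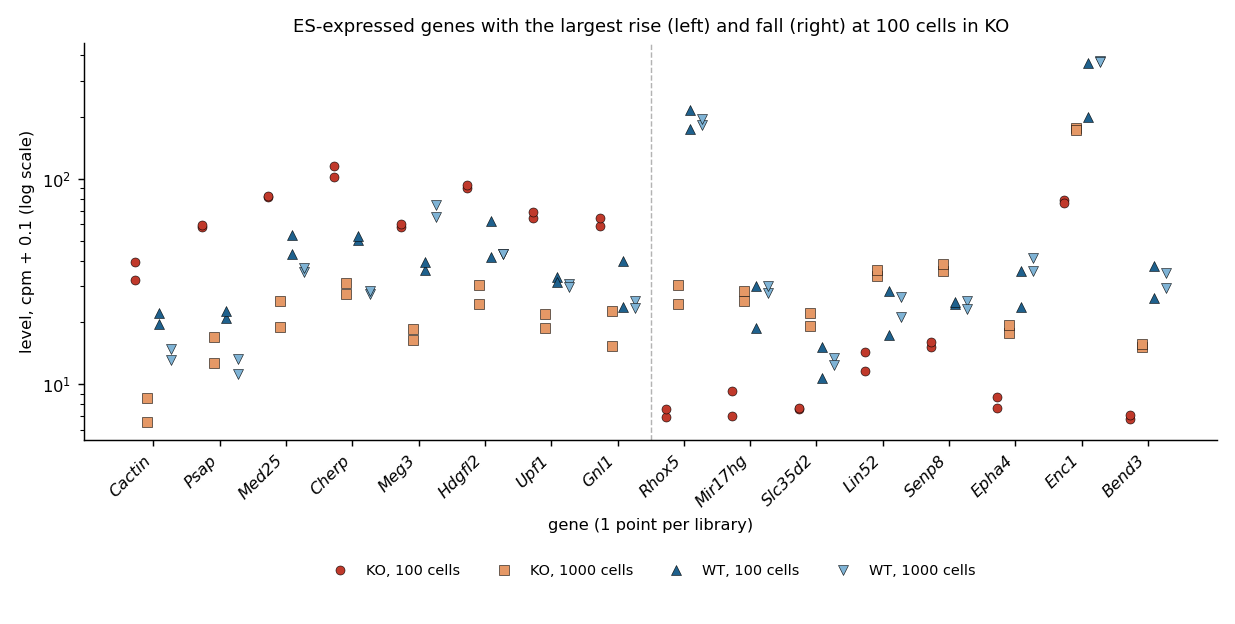
Level of 8 ES-expressed genes with the largest rises (left of the dashed line) and 8 with the largest falls (right) at 100 KO cells, in each of the 8 libraries (y axis, cpm + 0.1 on a log scale, 1 point per library, 2 per group). Predicted and unnamed genes and Xist are left out. On the left both libraries of 100 KO cells lie above those of 1000 KO cells, on the right below, and the WT inputs lie closer together in most genes.

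The first 3 named protein-coding genes by size in each direction among ES-expressed genes illustrate the base composition described next. The middle 120 bases of each coding sequence are printed from GENCODE M21 (GRCm38), 5′ to 3′ on the strand of the gene, with G and C in capitals. The first 3 rose and the last 3 fell.
Cactin: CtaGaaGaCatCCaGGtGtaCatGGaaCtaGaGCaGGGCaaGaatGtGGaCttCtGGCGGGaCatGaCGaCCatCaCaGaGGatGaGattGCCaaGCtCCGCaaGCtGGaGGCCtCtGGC
Psap: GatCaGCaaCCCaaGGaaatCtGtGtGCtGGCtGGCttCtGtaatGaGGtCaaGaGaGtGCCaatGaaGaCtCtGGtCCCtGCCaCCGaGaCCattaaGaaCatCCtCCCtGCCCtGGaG
Med25: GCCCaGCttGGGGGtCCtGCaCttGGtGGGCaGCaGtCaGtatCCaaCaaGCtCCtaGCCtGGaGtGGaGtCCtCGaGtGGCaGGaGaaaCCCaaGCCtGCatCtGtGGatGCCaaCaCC
Rhox5: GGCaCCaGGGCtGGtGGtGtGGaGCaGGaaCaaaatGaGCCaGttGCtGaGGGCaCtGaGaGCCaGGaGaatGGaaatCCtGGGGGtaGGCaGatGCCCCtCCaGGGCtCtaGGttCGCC
Slc35d2: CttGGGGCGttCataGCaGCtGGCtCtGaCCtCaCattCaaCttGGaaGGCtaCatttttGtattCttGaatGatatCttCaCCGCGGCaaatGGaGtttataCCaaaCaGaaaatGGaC
Lin52: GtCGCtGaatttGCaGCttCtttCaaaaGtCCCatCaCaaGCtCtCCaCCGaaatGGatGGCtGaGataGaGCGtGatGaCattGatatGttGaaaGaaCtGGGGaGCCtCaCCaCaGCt
Over the whole coding sequence G and C made up 62.2% in Cactin, 55.0% in Psap and 61.5% in Med25, and 54.5% in Rhox5, 45.3% in Slc35d2 and 49.9% in Lin52. The stretch of Rhox5 shown (60.8%) is as rich in G and C as those of genes that rose.

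Across ES-expressed genes the calls followed GC content. The median GC content of the longest transcript was 52.7% for genes that rose, 44.8% for genes that fell and 48.4% for all 7831 with a known sequence. In the lowest quintile of GC content 7.02% rose and 60.4% fell, and in the highest quintile 54.3% rose and 13.1% fell. The median log2 ratio went from -0.24 in the lowest quintile through -0.13, -0.02 and 0.06 to 0.26 in the highest. In WT the medians ran the same way over a smaller range, from -0.08 to 0.13. With the offsets the KO medians lay between -0.02 and 0.00, as they were made to, and 2292 ES-expressed genes rose and 2400 fell. The calls of Mad2l1, Mcm3, Cct8, Kcnq1ot1, Ppia and Tubb3 were lost with them. By length, the longest quintile, transcripts of 5172 bases or more, had 18.2% that rose and 46.2% that fell. Across genes, Spearman's coefficient of GC content with the log2 ratio was 0.46 in KO and 0.37 in WT, where genes of 1 library are not independent replicates.

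**Figure D5:**
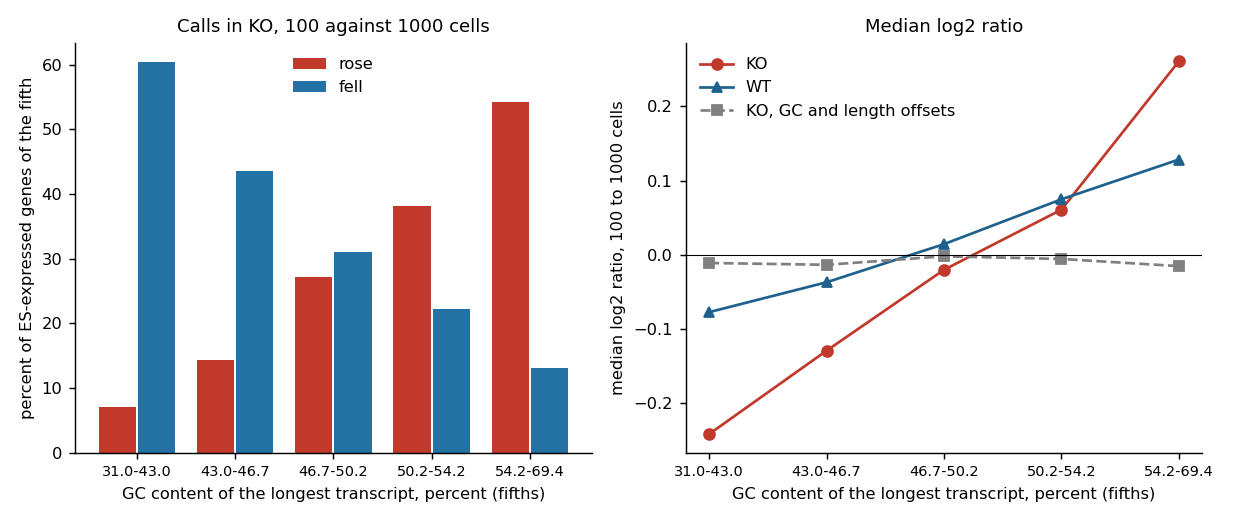
Left, percent of ES-expressed genes in each quintile of GC content (x axis, percent GC of the longest transcript) that rose or fell at 100 KO cells. Right, median log2 ratio of 100 to 1000 cells in each quintile for KO, for WT and for KO with offsets for GC content and length. The share that rose climbs from 7.02% to 54.3% across the quintiles, and the WT line runs the same way with a flatter slope.

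Among the genes with the most counts per library the ratios were small. Eef1a1, the elongation factor that brings tRNA to the ribosome, had 133682 and 135706 counts against 106550 and 122083 (log2 ratio 0.28). Hsp90ab1 (0.36), Gapdh (0.32), Ppia (0.17) and Ncl (0.47) were the next by counts among genes that rose. By counts, the first genes that fell were the pseudogenes Gm10925, Gm28437, Gm28661, Gm29216 and Gm13340. Gm10925 had 160346 and 143596 counts against 212951 and 247835 (-0.56), and Gm13340 had 48276 and 44492 against 99082 and 108671 (-1.13). All 50-base windows of Gm10925, Gm28437 and Gm28661, 97.1% of those of Gm29216 and 27.5% of those of Gm13340 also occur in mitochondrial transcripts, and no mitochondrial gene is among the identifiers of the table. Their counts therefore may hold reads of the mitochondrial genes, which was not tested. With the offsets, the ratios of Gm10925 (-0.01), Gm29216 (-0.08) and Gm28661 (0.07) were not called, Gm28437 was at -0.09 and Gm13340 at -0.80.

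Seen side by side, the same change of input gave few calls in WT. There 25 genes rose (0.149%) and 114 fell (0.678%), 139 in all (0.827% of 16816 tested), and 2054 had an unadjusted p below 0.05, with a spread between replicates of 12.02% (edgeR common coefficient of variation) against 4.28% in KO. Without replicate 1 or 2 of WT at 100 cells, 2631 or 2598 genes were called. Of the genes that rose in KO, 22 also rose in WT and 10 fell, and of those that fell in KO, 61 also fell and 0 rose. Among them, Psap (0.88), Cherp (0.91), Klf2 (0.59) and Sf3a2 rose in both genotypes and Tet1 (-0.70), Tet2 (-0.66) and Malat1 (-0.54) fell in both, values being those of WT. The interaction of input and genotype was called for 2745 genes (16.3% of those tested), 1560 (9.28%) with a higher and 1185 (7.05%) with a lower ratio in KO. Among genes that averaged 10 cpm or more over the 8 libraries, the largest values included those of Mbp (5.59) and Snap25 (4.56), and the lowest were those of Rhox5 (-1.996), Nxf3 (-1.92) and Cnpy4 (-1.72). Nxf3, an RNA export factor, had 28 and 23 counts against 84 and 100 in KO and 278 to 369 in WT. Cnpy4, a protein of receptor folding, had 27 and 31 against 112 and 87 in KO and 180 to 281 in WT.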

How the data were processed

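Polyadenylated RNA of J1 ES cells, Zbtb24 KO and WT, was measured by SMARTer Ultra Low RNA-seq from 100 or 1000 cells, with 2 libraries per group. The deposited values are raw counts of fragments per gene. The authors demultiplexed with CASAVA 1.8.2, removed rRNA reads with Bowtie2 2.1.0, mapped to mm10 with TopHat2 2.0.10 and counted with HTSeq 0.6.1 (union mode) over GENCODE M4, ignoring strand and discarding fragments that matched several genes or positions. Duplicate removal is not given in the sources used here, so reads from 18 PCR cycles are not independent molecules.

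Groups were taken from the labels. Genes with at least 10 counts in 1 of the 4 KO libraries were tested with edgeR 4.0.16 (R 4.3.3, TMM, quasi-likelihood F test, Benjamini-Hochberg adjusted p of at most 0.05, SE from F). The WT contrast and the interaction used genes with 10 counts in 1 of 8 libraries. Levels are CPM values (cpm), counts scaled to the total count of the library. Names and positions came from GENCODE M21 (GRCm38), for 42425 of 43309 identifiers, and GC content and length from its longest transcripts. Groups at 0 were set to a floor of 3 counts, and 95% intervals are exact and cover counting error only. Scripts were tested on simulated data.

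Named genes are Zbtb24, up to 4 members per list with the highest mean cpm, brain members under 1 cpm, the 10 largest log2 ratios in each direction with a mean of at least 10 cpm over the KO libraries, the same among ES-expressed genes, the 5 calls with the most counts in each direction, the 3 largest interactions in each direction and the pairs of related genes. Others were chosen after their values were seen. Some genes that the rule names are not reported here. The members and lists were chosen with earlier results of these data known. Alternatives were DESeq2 1.42.0, limma-voom (limma 3.58.1), the edgeR exact test, other scalings and filters, thinning, offsets for GC content and length, all 8 libraries in 1 fit, a replicate block and each library left out.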

Additional observations from a re-analysis of the deposited data

Results flagged for a closer look

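The ratio of 100 to 1000 cells differed between KO and WT, by the interaction of input and genotype (edgeR quasi-likelihood test with Benjamini-Hochberg adjustment), for 2745 genes, and 5404 had an unadjusted p below 0.05. The values that follow are interaction values on the log2 scale, the KO ratio less the WT ratio, for the genes named above in which the interaction was called. The spread between the replicates of 100 WT cells enters each of them, and leaving out 1 library moved the count of calls to between 709 and 5631.

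Brain list members had higher ratios in KO. They were Kcna1 7.02, Slc1a2 6.51, Chgb 6.15, Mbp 5.59, Penk 5.52, Slc12a5 5.44, Snap25 4.56, Enpp2 3.94, Nefm 3.93, Gad2 3.60, Eno2 3.005, Mag 2.997, Slc17a7 2.75 and Kif5a 2.64. Smaller values were those of Mog 2.58, Syt1 2.43, Rab3a 2.36, Vamp2 1.52, Ptgds 1.32, Gad1 1.14, Tubb3 0.55 and Apoe 0.51. For Syn2 12.86, Cdr1 12.85, S100b 10.78, Sparcl1 9.64, Camk2a 8.74, Muc2 -4.65, Scg5 4.53 and Alas2 -3.64, 1 or more of the 4 groups held at most 3 counts, so these values depend on the prior count of the fit.

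Other genes with a higher ratio in KO were Gpm6a 7.39, Mef2c 6.73, Prkar1b 4.63, Gpm6b 4.07, Gm10801 3.89, Gm10800 2.92, Kdm5d 2.77, Meg3 2.62, Jun 2.16, Hist1h1b 1.74, Cactin 1.65, Upf1 1.59, Med25 1.44, Hdgfl2 1.42 and Gnl1 1.28. Lower values were found for Hk1 1.25, Psap 1.11, Pold1 1.08, Cherp 0.98, Eef2 0.95, Pou5f1 0.90, Dnmt3b 0.87, Psmd3 0.85, Ncl 0.81, Pfkl 0.81, Pkm 0.80, Eif3b 0.72, Eno1 0.63, Hspa4 0.58 and Phgdh 0.58. The lowest of them were Dnmt1 0.55, Mcm2 0.54, Sf3a1 0.52, Klf2 0.50, Elavl1 0.48 and Mcm7 0.44. Genes with a lower ratio in KO were Vil1 -3.68, Prrg1 -3.34, Ackr3 -3.01, Rhox5 -1.996, Col4a1 -1.95, Nxf3 -1.92, Cnpy4 -1.72, Mir17hg -1.49, Slc35d2 -1.46, Lin52 -1.37, Peg10 -1.33, Senp8 -1.31, Bend3 -1.19, Xist -0.97 and Gm26624 -0.95. They were followed by Gm10925 -0.95, Npc1 -0.85, Epha4 -0.84, Zmat3 -0.83, Enc1 -0.79, Ccng1 -0.77, Gm13340 -0.72, Gm28661 -0.71, Gas5 -0.67, Esrrb -0.66, Ndufb11 -0.65, Tfcp2l1 -0.64, Fgf4 -0.58, Gm28437 -0.53 and Rps14 -0.50. The smallest in size were Nanog -0.50, Eif4e -0.48, Idi1 -0.47, Psmb6 -0.46, Prim1 -0.46, Mad2l1 -0.43, Srsf10 -0.42 and Hk2 -0.39.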

How the results depend on the processing

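Over the KO alternatives 6160 to 8712 genes were called, except 5730 by DESeq2 and 2588 with a log2 ratio above 1 in size, where the latter asks for more by construction. ES-expressed calls numbered 3378 to 4928, and 230 above 1 in size. Leaving out 1 library gave 6314 to 8530 calls over all genes and 3689 to 4989 among ES-expressed genes, with the lone sample assumed to vary like the others. The share of calls that were higher was 52.97% and went to 57.9% with TMM over ES-expressed genes, which moved the median of all genes to 0.05.

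The 139 WT calls became 47 with the offsets, 79 by library size alone, 463 without a filter, 285 with the replicate block, 5 with counts thinned to the smallest total and 29 above 1 in size, and leaving out 1 library gave 6 to 2631. Without replicate 1 or 2 of 100 WT cells there were 2631 or 2598. The 2745 interaction calls became 1177 above 1 in size, and leaving out 1 library gave 709 to 5631. The causes were not tested.

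The shared replicate numbers did not pair the samples: the deviations of same-numbered libraries correlated at -0.04 in KO and -0.12 in WT over 8365 genes. With the replicate block 8682 genes were called in KO, 4928 of them ES-expressed, and 2497 in the interaction.

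With the offsets, log2 ratios turned to 0.15 for Atp5f1, -0.22 for Bax, 0.15 for Dppa5a, 0.065 for Gm28661, 0.054 for Hells, 0.0098 for Homer1, -0.28 for Ina, 0.066 for Kif5b, 0.024 for Snap23 and 0.27 for Uty. That of Hist1h2ap ran from -2.74 to 0.24 with 1 library left out, the latter without replicate 1 of 100 KO cells. Of 203 named genes checked in this way, 30 lost a call under at least 1 alternative, among them Csf1r, Ddc, Fabp7, Fen1, Glul, Ldhb, Jun, Pomc and Th with DESeq2.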
